A study of Caenorhabditis elegans with 83 samples.

Results

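The 6 vitellogenin genes vit-1 to vit-6 and the intestinal GATA factor genes elt-2 and elt-7 were examined, 8 of the 19985 protein-coding genes of the Caenorhabditis elegans annotation. They were chosen by name. A peak was counted at a gene if it overlapped the gene body or the 2000 bp upstream of its start by at least 1 bp on the WBcel235 genome. By this rule 229 of the 201446 unique peaks in 22 deposited lists lay at these genes, of which 158 belonged to HDA-1, 64 to HCF-1 and 7 to SET-26.

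The study profiled HDA-1, SET-26 and HCF-1 by CUT&RUN, which releases the DNA beside a bound protein with a nuclease tethered to an antibody, in hermaphrodites grown at 25 °C to day 1 of adulthood. Each factor was a CRISPR knock-in: set-26::ha (rwIs27) and hda-1::gfp::ha (syb5185) were recovered with an HA antibody and hcf-1::gfp::3xflag (rwIs33) with a FLAG antibody. Worms without a germline either carried glp-1(e2141) and ate OP50 bacteria, or were fed glp-1 RNAi bacteria. Worms with a germline were otherwise wild type on OP50, or were fed the empty vector L4440. HDA-1 was also profiled in set-26(tm2467) and hcf-1(pk924) mutants, HCF-1 in set-26(tm2467) mutants and SET-26 in hcf-1(pk924) mutants. These mutants carried the same tags and were fed glp-1 RNAi or L4440, and HCF-1 in set-26(tm2467) was additionally profiled with glp-1(e2141) on OP50.

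Worms on OP50 that were not set-26 mutants were compared with untagged worms given the same antibody (HA or FLAG background), and the other lists used histone H3 of the same genotype and diet as control. HCF-1 in glp-1(e2141) was called against both controls. The authors merged the replicates of each group before calling peaks, so no value below has a replicate error and no test was possible. Merged factor libraries and controls are compared below as fold enrichment, the pileup of fragments at a peak's summit divided by the local background estimated from the control. Whole worms were homogenised, so binding in fewer cells of a type and weaker binding in each cell cannot be told apart, and no list is of intestinal cells alone.

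Vitellogenins are the precursors of yolk proteins. In C. elegans they are made in the intestine of adult hermaphrodites, secreted into the body cavity and taken up by growing oocytes, and their transcripts are among the most abundant of the adult. ELT-2 is the GATA-type transcription factor that maintains intestinal gene expression after the endoderm is specified, and ELT-7 acts alongside it. Both bind TGATAA-like sequences, and vitellogenin promoters have long been known for such sites and for a further element, TGTCAAT. HDA-1 belongs to the class I histone deacetylases, SET-26 is a SET-domain protein whose PHD finger binds trimethylated lysine on histone H3 tails, and HCF-1 is the worm counterpart of host cell factor.

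All 6 vitellogenin genes carried TGTCAAT and TGATAA close to their starts. In the 250 bases before the start, TGTCAAT was found on either strand in 6 of 8 genes, the 6 vitellogenin genes, against 4.82% of 19984 promoters of the same length. TGATAA was found in 8 of 8, against 26.8%, and its longer form CTGATAA, every match of which is also a TGATAA match, in 5, namely vit-1, vit-2, vit-4, vit-5 and vit-6, against 7.2%. AGATAA was found in none, against 18.7%. The sequences below are the promoters of vit-2, vit-3, vit-4 and vit-6, which stand at the summits of their HDA-1 peaks, and the proximal HDA-1 site upstream of elt-2. They were read on the gene's strand from the RefSeq genome WBcel235, and capitals mark matches to these motifs on either strand.
vit-2 promoter, chrX:5100792-5101041, plus strand: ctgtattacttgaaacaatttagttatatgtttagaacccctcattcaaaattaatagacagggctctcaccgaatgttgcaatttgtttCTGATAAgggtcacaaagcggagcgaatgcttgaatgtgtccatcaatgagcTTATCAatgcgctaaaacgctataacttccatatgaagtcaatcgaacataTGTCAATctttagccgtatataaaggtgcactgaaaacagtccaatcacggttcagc
vit-3 promoter, chrX:3572550-3572799, minus strand: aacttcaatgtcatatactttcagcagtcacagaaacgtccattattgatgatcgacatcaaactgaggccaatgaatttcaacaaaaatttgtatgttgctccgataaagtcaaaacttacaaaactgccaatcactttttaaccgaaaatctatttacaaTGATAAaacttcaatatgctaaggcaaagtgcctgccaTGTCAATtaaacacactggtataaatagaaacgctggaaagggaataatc
vit-4 promoter, chrX:3563966-3564215, minus strand: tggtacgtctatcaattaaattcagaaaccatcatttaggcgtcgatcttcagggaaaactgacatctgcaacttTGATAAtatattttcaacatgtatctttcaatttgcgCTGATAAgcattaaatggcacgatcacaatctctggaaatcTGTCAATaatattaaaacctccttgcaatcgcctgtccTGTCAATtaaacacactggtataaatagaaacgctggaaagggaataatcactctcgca
vit-6 promoter, chrIV:8260907-8261156, plus strand: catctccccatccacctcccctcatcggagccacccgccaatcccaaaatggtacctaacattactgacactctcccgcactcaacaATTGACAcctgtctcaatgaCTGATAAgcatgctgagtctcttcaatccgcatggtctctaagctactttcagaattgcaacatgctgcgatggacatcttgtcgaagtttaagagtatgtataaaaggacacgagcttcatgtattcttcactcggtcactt
elt-2 proximal site, chrX:10480613-10480912, plus strand: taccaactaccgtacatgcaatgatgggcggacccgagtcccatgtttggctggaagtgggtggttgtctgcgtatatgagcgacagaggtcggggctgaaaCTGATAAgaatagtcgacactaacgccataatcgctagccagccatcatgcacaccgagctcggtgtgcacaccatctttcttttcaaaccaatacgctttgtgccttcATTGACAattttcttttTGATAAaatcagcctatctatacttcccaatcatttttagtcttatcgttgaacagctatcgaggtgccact

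The vit-2 promoter holds TGATAA matches with first bases at −159 and −108 and TGTCAAT at −57, counted from the base before the start as −1. The vit-4 promoter holds TGATAA at −175 and −137 and TGTCAAT at −97 and −59. The vit-3 and vit-4 promoters share an unbroken run of 50 bases that begins with TGTCAAT, at −50 in vit-3 and at −59 in vit-4. In vit-6 the TGTCAAT match lies on the reverse strand at −163, upstream of TGATAA at −142. The elt-2 site, which runs from −627 to −328, holds TGATAA at −524 and −399 and a reverse TGTCAAT at −416. These are matches of letters and not measured sites of any factor. In the 300 bases around 12102 summits of the HDA-1 list from glp-1(e2141) worms, TGATAA was present in 41.4%, CTGATAA in 15.7%, TGTCAAT in 8.4% and AGATAA in 21.2%. Around the leading HDA-1 summit of each of the 8 genes the counts were 8, 5, 6 and 1, and these windows overlap the promoter windows of 5 genes (vit-2, vit-3, vit-4, vit-6 and elt-7).

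HDA-1 peaks lay at nearly every one of these genes in every list, HCF-1 peaks at some of them and SET-26 peaks at few. In the 8 HDA-1 lists a peak was present in 63 of 64 combinations of gene and list, or 98.4%, against 31 of 64 for HCF-1 in 8 lists, or 48.4%, and 7 of 48 for SET-26 in 6 lists, or 14.6%. The fold enrichment of the leading peak, the one with the highest −log10 q, ranged from 1.25 to 5.94 with a median of 2.79 for HDA-1. It ranged from 1.39 to 4.58 with a median of 2.19 for HCF-1, and from 1.26 to 2.03 with a median of 1.53 for SET-26. Antibodies, tags and controls differ between the factors, so folds are set beside the other peaks of the same list and not read as relative occupancy.

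HDA-1 had a peak at 8 of 8 genes in glp-1(e2141) worms, where 45.6% of all protein-coding genes had one, and at 8 of 8 in wild type, where 34.6% did. The count was 8 with glp-1 RNAi (44.9% of all genes) and 8 with L4440 (34.0%). In mutants it was 8 with glp-1 RNAi in hcf-1(pk924) (38.5%), 8 with glp-1 RNAi in set-26(tm2467) (34.6%) and 8 with L4440 in hcf-1(pk924) (31.1%). With L4440 in set-26(tm2467) it was 7, vit-1 being the gene without a peak (16.3% of all genes). The HDA-1 count therefore stood above the share of all genes in each of the 8 lists.

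SET-26 peaks were fewer at these genes than over all genes in each of its 6 lists. In glp-1(e2141) worms SET-26 had a peak at 2 of 8, vit-2 and vit-6, while 42.7% of all genes had one. In wild type it had a peak at 0 of 8, against 40.5%. With glp-1 RNAi the 2 genes were vit-6 and elt-7 (42.6% of all genes), and with L4440 there was none (37.9%). In hcf-1(pk924) mutants SET-26 had peaks at vit-2 and vit-6 with glp-1 RNAi (39.3%) and at vit-6 alone with L4440 (38.8%). In glp-1(e2141) worms HDA-1 and SET-26 shared their HA background control, so there the lists differ without a difference in control.

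HCF-1 fell between the other factors and its count moved with the control and the setting. In glp-1(e2141) worms HCF-1 had a peak at 6 of 8 against the FLAG background, vit-3 and vit-4 being without one (41.7% of all genes), and at 8 of 8 when the same libraries were called against H3 (49.0%). In wild type the count was 4 (35.3%), at vit-2, vit-5, vit-6 and elt-7. With glp-1 RNAi it was 7 (42.8%), vit-1 being without one, and with L4440 it was 1, vit-6 (33.4%). In set-26(tm2467) mutants it was 4 with glp-1(e2141) (25.0%), 1 with glp-1 RNAi, elt-7 (7.16%), and 0 with L4440 (23.1%).

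**Figure D1:**
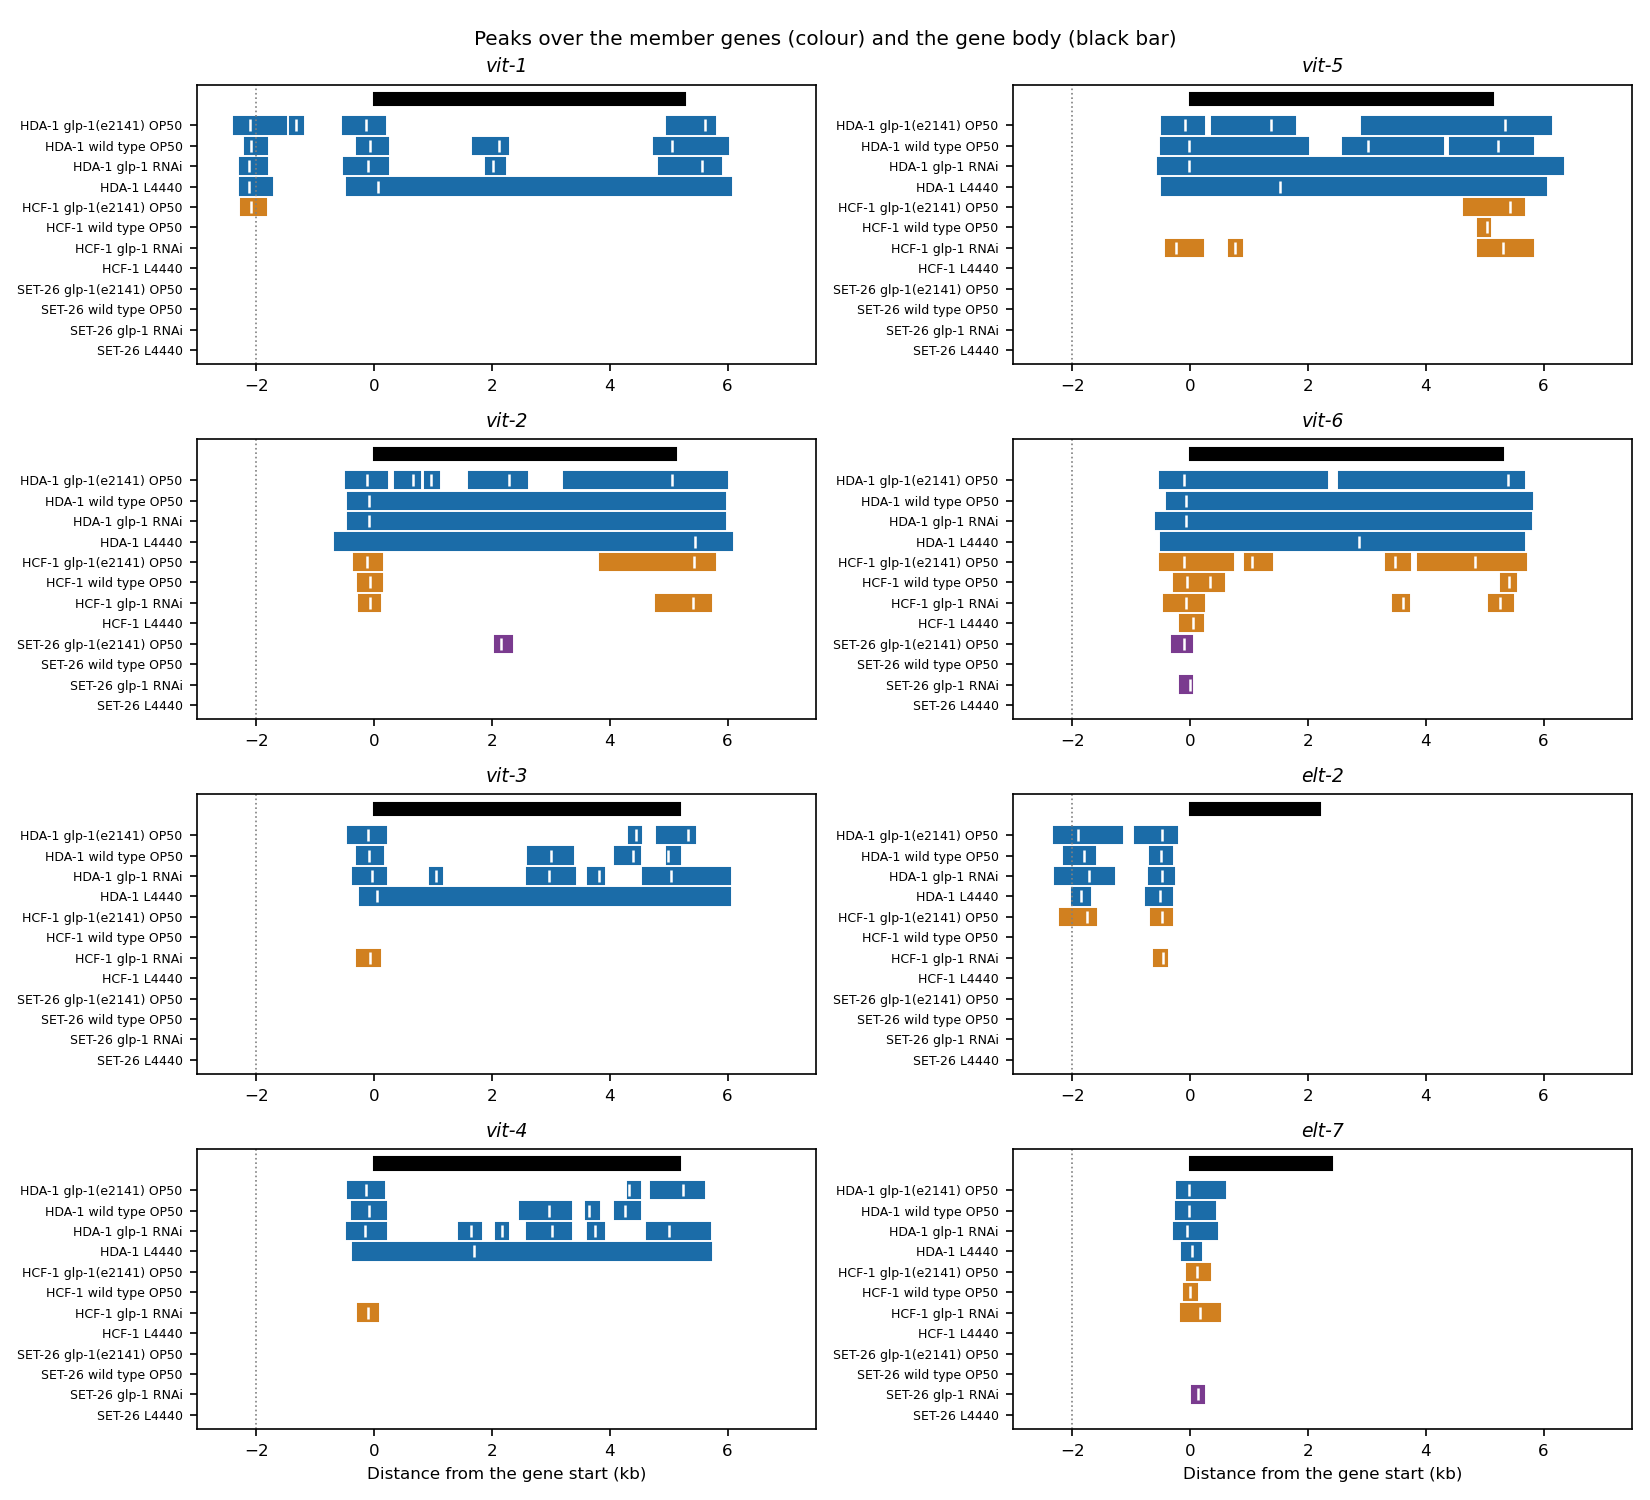
Position of every unique peak at the 6 vitellogenin genes, elt-2 and elt-7, in kb from the gene start, for the 12 lists of worms without set-26 or hcf-1 mutations (HCF-1 in glp-1(e2141) against FLAG background), coloured by factor, with a white tick at the leading summit of each peak, a black bar for the gene body and a dotted line at the upstream limit of the window. HDA-1 peaks span whole vitellogenin genes in several lists, HCF-1 peaks sit mostly near starts and ends, and SET-26 has 4 peaks in all.

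The same order of the factors was seen in a window that has the same length in every gene. In the 250 bp before the start, HDA-1 had a peak at 8 of 8 in glp-1(e2141) (26.2% of all genes), and at 7 of 8 in wild type (17.5%), with glp-1 RNAi (25.8%) and with L4440 (17.6%), elt-2 being the gene without one. HCF-1 had a peak there at 3 of 8 in glp-1(e2141) against FLAG background (25.3%), but at 7 of 8 when the same libraries were called against H3 (30.6%). Its count was 3 in wild type (21.7%), 6 with glp-1 RNAi (27.5%) and 1 with L4440 (21.6%), so that HCF-1 came close to HDA-1 in both germline-less lists called against H3. SET-26 had a peak there at 1 of 8 in glp-1(e2141) (28.7%), 0 in wild type (28.8%), 1 with glp-1 RNAi (30.1%) and 0 with L4440 (27%).

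vit-6 was the gene at which all 3 factors had a promoter peak in worms without a germline. It lies at IV 8261157–8266459 on the plus strand and encodes a vitellogenin that is the most divergent in sequence of the worm family. HDA-1 fold enrichment of its leading peak was 5.58 in glp-1(e2141), 5.14 in wild type, 4.47 with glp-1 RNAi and 5.79 with L4440. Those folds ranked at the 93.7th percentile of their list in glp-1(e2141) and at the 96.3rd with L4440, so vit-6 was among the stronger HDA-1 peaks of both. For HCF-1 the fold at vit-6 was 3.41 in glp-1(e2141), with its summit at −94, 2.73 in wild type, 2.35 with glp-1 RNAi and 1.68 with L4440. The SET-26 fold at vit-6 was 2.03 in glp-1(e2141), with its summit at −106 and close to that list's median of 2.08, and 1.58 with glp-1 RNAi. The HDA-1 summit in glp-1(e2141) was at −99, so all 3 summits fell within the printed promoter.

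vit-2 lies at X 5101042–5106169 on the plus strand, and its protein is a major yolk protein of the worm. HDA-1 fold enrichment was 3.57 in glp-1(e2141), 5.94 in wild type, 5.47 with glp-1 RNAi and 4.47 with L4440, the wild type value being the highest at any of the 8 genes in any list. The leading summit lay at −125 in glp-1(e2141), −91 in wild type and −84 with glp-1 RNAi, all in the printed promoter, but at 5440, beyond the 3′ end, with L4440. HCF-1 at vit-2 was strongest not at the promoter but at the 3′ end in glp-1(e2141), with a fold of 3.11 at 5435 and of 1.54 at −120. The summits at 5435 and 5440 lie inside the neighbouring gene C42D8.9 and cannot be assigned to vit-2 rather than to it. The only SET-26 peak of control worms at vit-2 had a fold of 1.53 and its summit inside the gene, at 2149.

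vit-5, at X 3403471–3408603 on the plus strand, had HDA-1 folds of 3.66, 4.57, 4.87 and 4.0 in glp-1(e2141), wild type, glp-1 RNAi and L4440. Its HCF-1 folds were 1.53, 1.58 and 2.39 in the first 3 of those settings, with no peak with L4440, and no SET-26 peak was called there in any list. In glp-1(e2141) both its HDA-1 and its HCF-1 leading summits lay beyond the 3′ end of the gene, at 5339 and 5430. The HCF-1 summit with glp-1 RNAi lay at 5312. These summits lie inside the neighbouring gene unc-78, which starts at 5203, and cannot be assigned to vit-5 rather than to it. The HDA-1 peak over the vit-5 start in glp-1(e2141) had a fold of 3.31 with its summit at −77.

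vit-3, at X 3567355–3572549, and vit-4, at X 3558769–3563965, are neighbours on the minus strand. HDA-1 folds at vit-3 were 4.25, 2.68, 3.04 and 3.19 in glp-1(e2141), wild type, glp-1 RNAi and L4440. At vit-4 they were 3.16, 2.98, 2.27 and 3.06. HCF-1 was called at both with glp-1 RNAi, at 1.62 and 1.63, and in glp-1(e2141) only against H3, at 2.37 and 1.82. SET-26 had no peak at either gene in any of its 6 lists.

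vit-1, at X 7727889–7733168 on the plus strand, had the lowest HDA-1 folds of the vitellogenin genes in 2 of the 4 control lists. The folds were 2.96, 2.55, 2.29 and 3.11 in glp-1(e2141), wild type, glp-1 RNAi and L4440. In glp-1(e2141) the leading summit lay at −2111, beside the gene spp-14 and the noncoding RNA K09F5.9, and a second peak had its summit at −131. HCF-1 had its peak at the same distal place, with a fold of 2.45 at −2092. Those distal peaks cannot be assigned to vit-1 rather than to its neighbours.

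**Figure D2:**
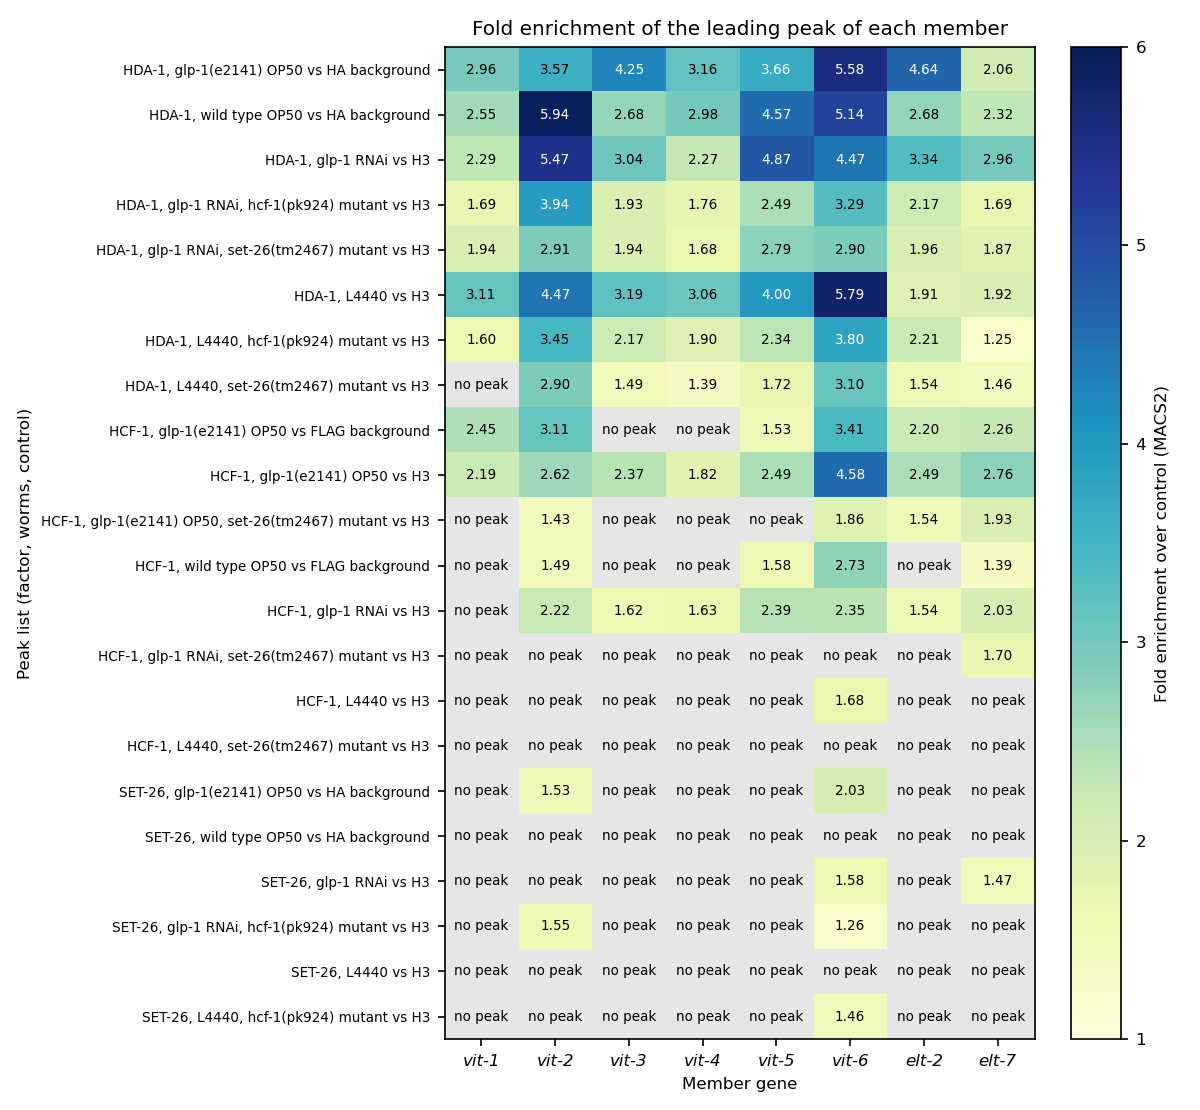
Fold enrichment of the leading peak (colour and printed value, pileup over local background) at each of the 8 genes in each of the 22 lists, with grey cells where no peak was called. HDA-1 fills all but 1 of its cells, HCF-1 reaches 4.58 at vit-6 and SET-26 has 7 filled cells, none above 2.03.

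HDA-1 peaks did not stop at vitellogenin promoters but ran over whole genes, which was rare among genes of that length. Of 4402 genes of at least 4000 bp, 80% or more of the body lay under HDA-1 peaks in 0.182% of genes in glp-1(e2141), 0.114% in wild type, 0.25% with glp-1 RNAi and 0.159% with L4440. These were 8, 5, 11 and 7 genes, of which 1, 3, 3 and 6 were vitellogenin genes. With L4440 all 6 vitellogenin genes had 100% of their bodies covered, and the seventh gene was nhr-17, which encodes a nuclear hormone receptor. In wild type the 3 were vit-2, vit-5 and vit-6, and the others were nhr-17 and metr-1, a methionine synthase gene. The threshold of 80% and the length limit were chosen after the data had been seen.

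Single peaks spanned the genes. The vit-2 peak was 6396 bp wide in wild type, 6402 bp with glp-1 RNAi and 6741 bp with L4440, where it was the second widest of its list. The vit-6 peak was 6199 bp, 6358 bp and 6158 bp wide in the same lists. With L4440 the peaks of vit-1, vit-3, vit-4 and vit-5 were 6504, 6267, 6075 and 6524 bp wide. In wild type the vit-2 and vit-6 peaks, called against HA background, ranked 3 and 4 by width, so wide peaks were seen with both kinds of control. HCF-1 peaks at these genes reached 3356 bp, SET-26 peaks 333 bp, and the median widths were 549 bp for HDA-1, 425 bp for HCF-1 and 239 bp for SET-26.

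Much of the vitellogenin sequence is repeated between family members, which limits what can be said of single genes inside their bodies. Of all 32-base words, 19.8% were unique in the genome in the body of vit-3 and 16.4% in vit-4, which share 76.7% of their words with each other. Unique words made up 39.4% of the vit-5 body, 77.6% of vit-1 and 76.9% of vit-2. Reads inside vit-3, vit-4 and vit-5 cannot be assigned to 1 gene with certainty, and coverage of those bodies is uncertain. The vit-6 and elt-2 bodies were 100% unique and the elt-7 body 96.3%, and the 2000 bp upstream of each of the 8 genes were 95.6% to 100% unique, so the limit does not touch vit-6 or elt-2. The promoter peaks of vit-3 and vit-4 include their shared 50 bases and run on into the bodies, and the vit-3 summit with glp-1 RNAi, at −38, lies within those 50 bases.

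Peaks lay over the 3′ ends of vitellogenin genes, in part through the wide peaks described above. HDA-1 peaks covered the last base of the 6 vitellogenin genes, and of neither GATA gene, in glp-1(e2141) (8.28% of all genes), with glp-1 RNAi (7.94%) and with L4440 (3.98%). In wild type they covered it in 4 (4.43%), vit-3 and vit-4 being without. For a body covered at 100% the last base is covered too, so there the count adds nothing to the coverage. This was so for all 6 genes with L4440, for vit-2, vit-5 and vit-6 with glp-1 RNAi, and for vit-2 and vit-6 in wild type. HCF-1 covered the last base of vit-2, vit-5 and vit-6 in glp-1(e2141) against FLAG background (3 of 8 against 8.3%) and with glp-1 RNAi (3 of 8 against 11.5%), and of 5 of 8 in glp-1(e2141) against H3 (12.2%). In worms with a germline HCF-1 covered it in 1 of 8 in wild type, vit-6 (10.3%), and in 0 with L4440 (10.3%), which is near or below the background. SET-26 covered the last base of none of the 8 in any of its 6 lists, in which 15.8% to 20.8% of all genes had a peak there. The genes beyond the ends of vit-2 (C42D8.9), vit-5 (unc-78) and vit-6 (K07H8.8) lie on the opposite strand and run toward them.

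**Figure D3:**
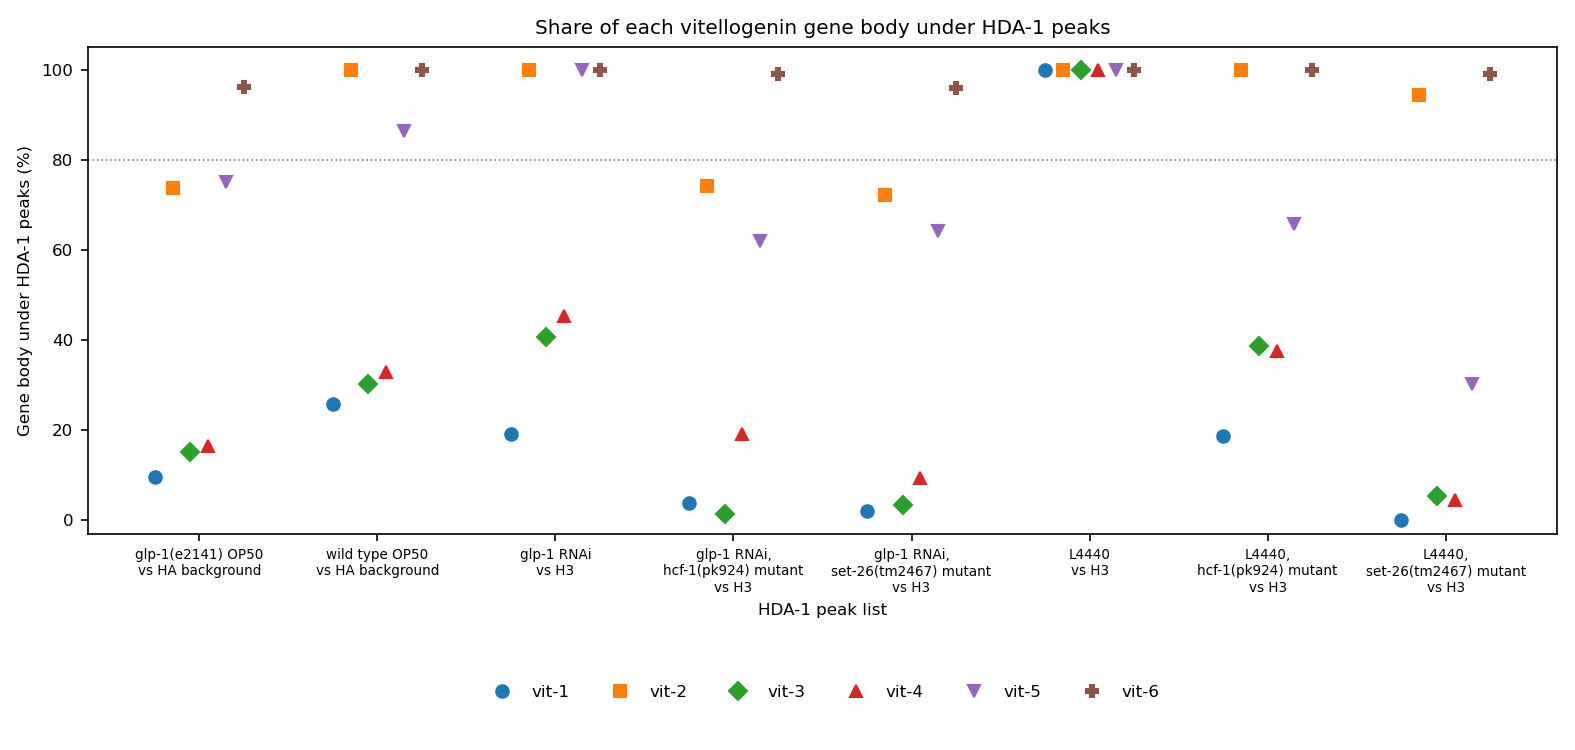
Percent of each vitellogenin gene body under HDA-1 peaks (vertical axis) in each HDA-1 list (horizontal axis), 1 symbol per gene, with a dotted line at 80%. All 6 genes are at 100% with L4440, and vit-2 and vit-6 are the highest in each mutant list.

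elt-2 lies at X 10481240–10483441 on the plus strand. It had 2 upstream HDA-1 peaks and none over its body, which was covered at 0% in all 8 HDA-1 lists. The proximal peak had a fold of 4.64 in glp-1(e2141), 2.45 in wild type, 3.34 with glp-1 RNAi and 1.91 with L4440, with summits between −503 and −474. The distal peak had folds of 3.36, 2.68, 3.00 and 1.88 in the same order and its summit at −1901 in glp-1(e2141), where the noncoding gene C33D3.6 lies. Both peaks were higher in each list without a germline than in its partner with one. HCF-1 was found at both places in glp-1(e2141), at 2.20 (summit −482) and 2.26 (summit −1749), and at the proximal one with glp-1 RNAi, at 1.54. HCF-1 had no peak at elt-2 in wild type or with L4440, and SET-26 had none in any list.

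elt-7, at V 4770670–4773086 on the plus strand, had HDA-1 peaks across its start. The fold was 2.06 in glp-1(e2141), 2.32 in wild type, 2.96 with glp-1 RNAi and 1.92 with L4440, at the 40.1st, 59.4th, 72.7th and 50.0th percentiles of the lists. HCF-1 folds were 2.26, 1.39 and 2.03 in glp-1(e2141), wild type and glp-1 RNAi, with none with L4440. SET-26 had a peak with a fold of 1.47 with glp-1 RNAi only, with its summit at 134. In the 250 bases before the elt-7 start a single TGATAA match lies at −78 on the reverse strand.

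Next, worms with and without a germline were compared. HDA-1 kept its peaks at these genes when the germline was present. Of 23 HDA-1 peaks at the 8 genes in glp-1(e2141), 22 were overlapped by a wild type peak, against 59.6% of all peaks of that list. The corresponding count for L4440 against glp-1 RNAi was 21 of 21, against 58.5%. The median ratio of folds, with germline over without, was 1.14 at these peaks against 0.783 over all overlapped peaks on OP50, and 1.35 against 0.725 for L4440 over glp-1 RNAi. Because a wide peak can overlap several narrower ones, its fold enters more than once into the medians at these genes.

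HCF-1 did not show this. Of its 11 peaks in glp-1(e2141), 6 were overlapped in wild type, against 54.1% of all HCF-1 peaks, and 1 of 12 peaks with glp-1 RNAi was overlapped with L4440, against 53.9%. For SET-26 the counts were 0 of 2 in wild type, against 76.4%, and 0 of 2 with L4440, against 64.9%. The HCF-1 count on OP50 was thus near the background, while with L4440 it was below it. When the HCF-1 libraries of glp-1(e2141) worms were called against H3, 11 of the 11 peaks called against FLAG background were overlapped, against 98.8% of all.

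Per gene, the ratio of HDA-1 folds with germline over without differed between the OP50 and RNAi settings. For elt-2 it was 0.528 on OP50 and 0.572 with L4440 over glp-1 RNAi, below 1 in both and at the 5.6th and 13.6th percentiles of all overlapped peaks. For the distal peak of vit-1 the ratio was 0.639 and 0.842, also below 1 in both. For vit-2 it was 1.66 on OP50, at the 98.9th percentile, and 0.817 with L4440. vit-4 stood at 0.943 and 1.35, and vit-6 at 0.921 and 1.29. vit-3 stood at 0.632 and 1.05, vit-5 at 1.14 and 0.822, and elt-7 at 1.13 and 0.65. Among these leading peaks, none at a vitellogenin gene had a ratio above 1 in both settings. For vit-1 that says nothing of its promoter, since the distal peak cannot be assigned to it. The peak over the vit-1 start was almost unchanged on OP50, with a fold of 2.55 with a germline against 2.54 without. With L4440 it was higher, at 3.11 (a 6504 bp peak with its summit at 74) against 2.03 for glp-1 RNAi. Against the list medians of 0.783 on OP50 and 0.725 for L4440 over glp-1 RNAi, vit-2, vit-4, vit-5 and vit-6 lay above in both. The elt-2 ratio lay below in both, and vit-3, elt-7 and the distal vit-1 peak changed sides. With L4440 the leading summits of vit-2, vit-4, vit-5 and vit-6 lay elsewhere in the gene than with glp-1 RNAi.

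At the vitellogenin genes the covered length was larger or unchanged with a germline in both settings. More of the gene body lay under HDA-1 peaks in wild type than in glp-1(e2141) at 6 of 6 vitellogenin genes, while this held for 9.05% of 2034 genes of at least 4000 bp with a peak in either list. For L4440 against glp-1 RNAi it held for 3 of 6, vit-2, vit-5 and vit-6 being at 100% in both, against 9.45% of 2001 genes. The median covered share of the 6 genes was 59.5% in wild type and 45.1% in glp-1(e2141), and 100% with L4440 and 72.7% with glp-1 RNAi. Over all those long genes it was 2.85% and 6.51%, and 3.11% and 6.56%. In wild type vit-1, vit-3 and vit-4 were covered at 25.8%, 30.3% and 32.8%, and in glp-1(e2141) at 9.55%, 15.2% and 16.5%. Germline markers moved between the OP50 lists. Of 8 germline marker genes, SET-26 had a peak at 3 in glp-1(e2141) worms and at all 8 when wild type. HCF-1 had one at 1 and 8, and HDA-1 at 1 and 1. Between glp-1 RNAi and L4440 the marker counts moved little. SET-26 had a peak at 7 and 8 there, HCF-1 at 7 and 8, and HDA-1 at 1 and 2. The median fold at markers with a peak was 2.11 and 3.32 for HCF-1 and 4.4 and 4.6 for SET-26. That worms fed glp-1 RNAi lacked a germline is taken from the labels and was not seen in these counts. The part of these marker differences in the vitellogenin values was not tested.

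Loss of SET-26 or HCF-1 was then examined for its effect on HDA-1 at these genes. With glp-1 RNAi, 12 of 21 HDA-1 peaks at the 8 genes were overlapped by a peak in set-26(tm2467), against 63.7% of all HDA-1 peaks, and 13 of 21 in hcf-1(pk924), against 70.4%. With L4440 the counts were 7 of 10 in set-26(tm2467), against 39.3%, and 10 of 10 in hcf-1(pk924), against 77.8%. The counts with glp-1 RNAi were below the share of all peaks, while those with L4440 were above it, but only under an overlap of 1 bp. When a mutant peak had to cover at least 0.5 of the control peak, the counts with glp-1 RNAi were 7 of 21 (50.1% of all peaks) and 8 of 21 (58.8%), and those with L4440 were 3 of 10 (29.1%) and 6 of 10 (72.3%), near or below the share of all peaks.

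At all but 1 of these genes the folds of the overlapped HDA-1 peaks were lower in mutants than in controls, elt-2 in hcf-1(pk924) with L4440 being the exception. In hcf-1(pk924) with glp-1 RNAi the ratio of mutant to control fold was below 1 at each of the 8 genes, from 0.512 at vit-5 to 0.736 at vit-6, and all 13 overlapped peaks lay below the median ratio of the list, 0.854. The median ratio of the 13 was 0.681. In set-26(tm2467) with glp-1 RNAi the ratio was 0.531 at vit-2 to 0.819 at vit-1, with a median of 0.634 over 12 peaks against 0.765 over all. Of those 12, only 8 lay below the median over all. Peaks that were strong in controls had lower ratios throughout the list: over all peaks with a control fold of 3 or more the median was 0.781 in hcf-1(pk924) and 0.678 in set-26(tm2467).

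With L4440 the pattern differed at elt-2. In hcf-1(pk924) the ratio was 0.513 at vit-1, 0.62 at vit-4, 0.585 at vit-5, 0.657 at vit-6, 0.681 at vit-3, 0.771 at vit-2 and 0.649 at elt-7, but 1.16 at elt-2. Control and mutant summits could lie in different parts of a gene, at 74 and 2444 for vit-1 and at 1525 and 5349 for vit-5. Of the 10 overlapped peaks, 9 lay below the list median of 0.939, and their own median was 0.669. Over peaks with a control fold of 3 or more the median was 0.872, and over the 14 overlapped peaks of at least 5000 bp, which include those of the 6 vitellogenin genes, it was 0.76. In set-26(tm2467) the ratio was 0.43 at vit-5, 0.453 at vit-4, 0.468 at vit-3, 0.535 at vit-6, 0.648 at vit-2 and 0.759 at elt-7, with a median of 0.535 over 7 peaks. Of those 7, 5 lay below the median over all peaks of the list. That list had low ratios generally, with a median of 0.661 over all peaks and 0.575 over those with a fold of 3 or more. Over its 13 overlapped peaks of at least 5000 bp, which include those of vit-2 to vit-6, the median was 0.468. The 0.535 also takes in the narrower elt-7 and distal elt-2 peaks, so it is not set against that value. The vit-1 peak and the proximal elt-2 peak were not overlapped there, and the distal elt-2 peak remained at 1.54.

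**Figure D4:**
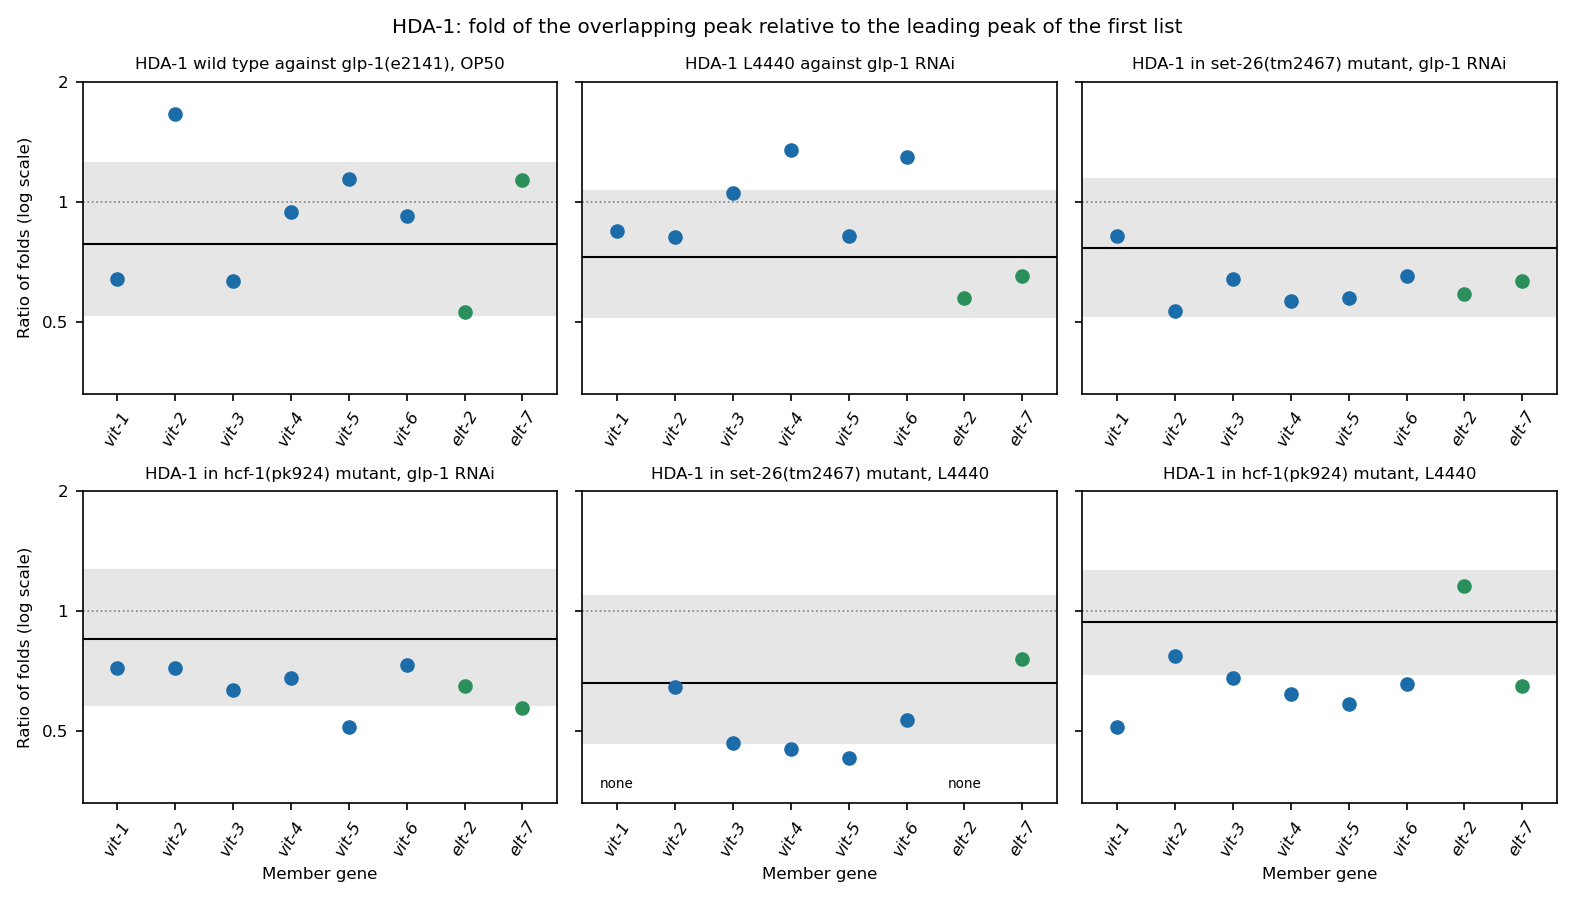
Ratio of HDA-1 fold enrichment, on a log axis, of the leading peak at each of the 8 genes, for each mutant over its control and for worms with a germline over those without, with the median ratio of all overlapped peaks as a line, their 5th to 95th percentile as a grey band, and "none" where no peak overlapped. Every mutant ratio drawn is below 1 but for elt-2 in hcf-1(pk924) with L4440, at 1.16.

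The wide HDA-1 peaks were shortened in mutants, as at most long genes. Less of the body was covered at 6 of 6 vitellogenin genes in set-26(tm2467) with glp-1 RNAi, against 84.5% of long genes, and at 6 of 6 in hcf-1(pk924) with glp-1 RNAi, against 78.3%. With L4440 it was 6 of 6 in set-26(tm2467), against 93.0%, and 4 of 6 in hcf-1(pk924), against 65.5%, where vit-2 and vit-6 stayed at 100%. These counts lie near the share of all long genes. The sizes differed by gene: with L4440 coverage went from 100% in controls to 18.6%, 38.7%, 37.5% and 65.8% at vit-1, vit-3, vit-4 and vit-5 in hcf-1(pk924). In set-26(tm2467) it went to 0%, 5.35%, 4.41% and 30.2% at the same genes, and to 94.3% at vit-2 and 99.0% at vit-6. In those 2 mutant lists vit-2 and vit-6 were the only long genes with at least 80% of the body covered.

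HCF-1 peaks at these genes were mostly absent without SET-26. With glp-1 RNAi, 1 of 12 HCF-1 peaks at the 8 genes was overlapped in set-26(tm2467), the elt-7 peak with a ratio of 0.835, while 8.87% of all HCF-1 peaks were overlapped. With glp-1(e2141) on OP50 it was 6 of 27, against 28.3%, with a median ratio of 0.573 against 0.44 over all. With L4440 the single HCF-1 peak, at vit-6, was not overlapped, against 44.0%. The shares at these genes were close to those of the whole lists in the germline-less settings. At vit-6 the HCF-1 fold in glp-1(e2141) against H3 was 4.58 in controls and 1.86 in set-26(tm2467).

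SET-26 peaks at these genes were too few to compare with its lists. With glp-1 RNAi 1 of 2 was overlapped in hcf-1(pk924), against 67.4% of all SET-26 peaks, and with L4440 there was 0 of 0, against 83.0%. In hcf-1(pk924) SET-26 folds at vit-6 were 1.26 with glp-1 RNAi and 1.46 with L4440, and the fold at vit-2 was 1.55 with glp-1 RNAi.

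Other genes of the intestine and of yolk biology were counted from lists that were chosen with results of these data known, in the order glp-1(e2141), wild type, glp-1 RNAi and L4440. Among 7 intestine markers, HDA-1 had a peak at 6 in each of the 4 lists, HCF-1 at 6, 2, 5 and 1, and SET-26 at 2, 2, 2 and 1. The shares of all genes, in the same order of lists, were 45.6%, 34.6%, 44.9% and 34.0% for HDA-1, 41.7%, 35.3%, 42.8% and 33.4% for HCF-1 and 42.7%, 40.5%, 42.6% and 37.9% for SET-26. HDA-1 thus stood above its background in each list and SET-26 below it, while HCF-1 was above it only in worms without a germline, and equalled HDA-1 in glp-1(e2141). elt-2 is 1 of these markers. Among 5 body wall muscle markers HDA-1 had a peak at 5, 4, 5 and 5. It had one at 4 of 6 neuron markers in each list and at 2, 1, 3 and 2 of 6 epidermis markers. A high HDA-1 count was thus not particular to the intestine markers. HDA-1 folds in glp-1(e2141) were 3.15 at pept-1, an intestinal peptide transporter gene, and 2.78 at asp-1, an aspartyl protease gene, and SET-26 had no peak at either. Among 17 digestive, transport and brush border genes the counts were 15, 15, 14 and 12 for HDA-1, 14, 8, 12 and 5 for HCF-1, and 6, 5, 7 and 4 for SET-26, read against the same shares of all genes. SET-26 was near or below its background there, and HCF-1 was slightly below it with L4440 and above it in the other 3 lists. Examples are mtl-2, a metallothionein gene, with folds of 6.55 for HDA-1, 3.99 for HCF-1 and 3.00 for SET-26 in glp-1(e2141), and asp-3, with 5.31 for HDA-1, 2.52 for HCF-1 and no SET-26 peak.

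At genes that regulate vitellogenins all 3 factors stood above those shares of all genes in every list. Among 14 such regulators HDA-1 had a peak at 14, 13, 14 and 13, HCF-1 at 13, 11, 12 and 8, and SET-26 at 11, 11, 12 and 9. For daf-16, the FOXO factor of insulin signalling, folds in glp-1(e2141) were 5.60 for HDA-1, 3.97 for HCF-1 and 4.07 for SET-26. For sma-4, a Smad of the body size pathway, they were 6.69, 3.72 and 3.74. For sma-2, a further Smad, they were 5.31, 2.54 and 5.29, and for mab-3, a DM-domain factor that represses vitellogenins in males, 5.06, 3.38 and 4.0. Many of these genes are expressed in several tissues, and a peak in whole worms does not name the tissue.

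The remaining lists were mixed, and with so few genes many of their counts lay near the shares of all genes. Among 7 genes of endoderm and intestine specification the counts in the same order were 5, 4, 5 and 3 for HDA-1, 4, 3, 3 and 3 for HCF-1 and 4, 3, 3 and 3 for SET-26. The fold at skn-1, a maternal factor that starts endoderm specification, was 7.41 for HDA-1, 3.80 for HCF-1 and 3.89 for SET-26 in glp-1(e2141). At elt-4, a small GATA gene next to elt-2, HDA-1 had 3.27, HCF-1 1.60 and SET-26 no peak. Among 5 other GATA factor genes HDA-1 had peaks at 2, 4, 2 and 4, HCF-1 at 1, 1, 2 and 1 and SET-26 at 2, 1, 1 and 1. Among 5 genes of yolk export and uptake the counts were 3, 3, 3 and 2 for HDA-1, 3, 3, 2 and 3 for HCF-1, and 3, 4, 3 and 3 for SET-26. Folds for HDA-1, HCF-1 and SET-26 in glp-1(e2141) were 4.78, 2.23 and 3.40 at rme-1, an endocytic recycling gene, and 2.00, 3.31 and 4.07 at rme-8, an endocytosis gene.

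The genes whose log2 folds over the 22 lists were most like those of elt-2 were asp-3 and sgca-1, both with a Pearson correlation of 0.976, and eppl-1, with 0.97. asp-3 and sgca-1 had the same leading HDA-1 fold in glp-1(e2141), 5.31, and both lie on chromosome X and had a peak in 11 lists. They may hold the same peaks, which was not examined, and should not be counted as separate likenesses. For vit-2 they were nhr-32 (0.967), K07H8.5 (0.954) and nhr-27 (0.943). K07H8.5 lies on chromosome IV, as does vit-6, and had the same HDA-1 fold in glp-1(e2141), 3.16, as the second vit-6 peak. It may hold that peak, which was not examined. Lists with no peak entered as 0, and the lists share antibodies, controls and libraries, so these values describe likeness of the pattern only.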

How the data were processed

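CUT&RUN peak lists of HDA-1, HCF-1 and SET-26 in day 1 adult worms were used as deposited. According to the methods and to the submitters' processing notes, the authors trimmed reads with Trim Galore 0.6.5, aligned them with Bowtie2 2.4.3 to WBcel235 and merged the replicates of a group. The notes also name deepTools 3.3. Peak calling by the authors used MACS2 2.1.4, per the file headers, with a q-value limit of 0.01, no removal of duplicates and the deeper library scaled down. The deposited signal is the authors' fragment pileup at a summit, the deposited fold is the authors' ratio of that pileup to the local control background, and the deposited −log10 q comes from the authors' Poisson test against it. The deposited score is a browser value and was not used. Merging leaves 1 value per group, so depth per sample is not known here and there is no replicate error.

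Entries with the same start and end were counted as 1 peak. Gene models came from Ensembl release 115. The vit-2 start is at 5101042 in Ensembl and at 5101032 in RefSeq, and the former was used. Mutant and control, or with and without germline, were compared by the peak of the second list that overlapped a peak of the first by 1 bp or more, with the highest −log10 q. In a wide peak that summit may lie elsewhere. The members and gene lists were chosen with earlier results of these data known. All 8 genes are named, with up to 4 examples per list, those with the highest −log10 q in the HDA-1 glp-1(e2141) list, and the 3 genes most like elt-2 and vit-2 that share no peak with them. Alternatives chosen after seeing the data were the 250 bp window, the covered share of genes of at least 4000 bp, the peak over the last base, control peaks with a fold of 3 or more or of at least 5000 bp, and words of 41 bases. For HDA-1 in set-26 mutants the genotype label adds a digit to the allele name that the titles lack, and titles were followed. Interval code was tested on simulated intervals against bedtools. Analyses used Python 3.11.15, numpy 2.4.6, pandas 2.3.3 and matplotlib 3.10.9.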

Additional observations from a re-analysis of the deposited data

Results flagged for a closer look

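At several genes the ratio of HDA-1 folds lay on opposite sides of 1 in settings that make the same comparison. Each value rests on 1 merged list per group, the lists on OP50 were called against HA background and the others against H3, and the difference between the settings was not tested. The ratio of hcf-1(pk924) to control fold at elt-2 was 0.651 with glp-1 RNAi and 1.16 with L4440.

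The ratio of folds with a germline over without one was compared between wild type over glp-1(e2141) and L4440 over glp-1 RNAi. It was 1.66 and 0.817 at vit-2, and 1.14 and 0.822 at vit-5. It was 1.13 and 0.65 at elt-7. In the other direction it was 0.632 and 1.05 at vit-3, 0.943 and 1.35 at vit-4, and 0.921 and 1.29 at vit-6. Over all overlapped peaks the median ratio was 0.783 on OP50 and 0.725 for L4440 over glp-1 RNAi. The ratios at vit-2, vit-4, vit-5 and vit-6 were above those medians in both settings, while those at vit-3 and elt-7 changed sides. For L4440 over glp-1 RNAi some ratios set summits in different parts of a gene against each other. The glp-1 RNAi summits of vit-2, vit-5 and vit-6 lay at −84, −19 and −68. Their L4440 summits lay at 5440, 1525 and 2869, and the vit-4 summits at 3020 and 1692. The bodies of vit-3, vit-4 and vit-5 are the ones with the smallest share of unique sequence, and its part in these values was not tested.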

How the results depend on the processing

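No paired analysis was possible because the authors called every list on merged replicates, and for the same reason no replicate could be left out and no error can be given. HDA-1 counts at the 8 genes did not move by over 1.5 times under any window, threshold or overlap tried, but for L4440 in set-26(tm2467), where the 250 bp before the start gave 4. In that window HCF-1 in glp-1(e2141) against FLAG background gave 3, HCF-1 with glp-1 RNAi in set-26(tm2467) gave 0, and SET-26 gave 1 in glp-1(e2141) and 1 with glp-1 RNAi. From 2000 bp upstream to 500 bp downstream of the start, SET-26 in glp-1(e2141) gave 1. With peaks of −log10 q of 5 or more, HCF-1 in wild type gave 2, and SET-26 gave 1 in glp-1(e2141), 1 with glp-1 RNAi, 1 with glp-1 RNAi in hcf-1(pk924) and 0 with L4440 in hcf-1(pk924). When a second peak had to cover at least 0.5 of the first, the HDA-1 peaks overlapped were 7 of 21 in set-26(tm2467) and 8 of 21 in hcf-1(pk924) with glp-1 RNAi, and 3 and 6 of 10 with L4440. Under that rule HCF-1 in set-26(tm2467) gave 0 of 12 with glp-1 RNAi and 2 of 27 in glp-1(e2141), and HCF-1 in wild type gave 1 of 11. Overlap counts with wide peaks thus depend on the overlap required. Taking the peak with the highest fold moved 3 of 101 folds, among them that of HDA-1 at vit-2 in glp-1(e2141), to 4.48. With words of 41 bases the unique share was 22.8% in vit-3 and 45.8% in vit-5.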

Other observations

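A few long genes outside the 8 were covered like vitellogenins by HDA-1. nhr-17 had 93.6% of its body under peaks in glp-1(e2141), 88.0% in wild type, 100% with glp-1 RNAi and 99.1% with L4440. Only nhr-17 and vit-6, of all genes of at least 4000 bp, were past 80% in all 4 control lists. With glp-1 RNAi it was covered at 94.9% in hcf-1(pk924) and 93.9% in set-26(tm2467), and with L4440 it fell under 80% in both mutants. ZK470.2 passed 80% in glp-1(e2141), with 91.0%, and with glp-1 RNAi, with 96.6%, but in neither list of worms with a germline, and mnk-1, a kinase gene, was at 83.6% and 89.2% in the same lists. These genes were picked after their values had been seen.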
